A study of Mus musculus with 18 samples.

Results

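The 10 genes described here are transcripts that mark reactive astrocytes: Gfap, Vim, Serpina3n, A2m, Lcn2, Cd44, Osmr, S1pr3, Timp1 and Steap4. They were taken by name from an expression table of mouse substantia nigra that lists 55270 genes, and all 10 were found there. The substantia nigra is a midbrain nucleus whose dopaminergic neurons project to the striatum. RNA sequencing was carried out on whole tissue from 18 mice aged 3 months, with 6 mice in each of 3 groups. The intact group was wild type, with no treatment named. The AAV-GFP group overexpressed green fluorescent protein from an adeno-associated virus (AAV), and the AAV-SIRT3 group overexpressed sirtuin 3, a mitochondrial deacetylase, from the same kind of virus. Tissue of the virus groups was collected a month after delivery. The labels name neither strain, sex, serotype, promoter nor the cells the virus entered, and they give no sham injection for the intact mice, so injection, virus and GFP cannot be told apart in AAV-GFP against intact. The stated purpose was to learn which transcripts change in substantia nigra that overexpresses SIRT3.

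Astrocytes become reactive after injury, infection or inflammation: they enlarge, make more of the intermediate filament proteins GFAP and vimentin, and secrete protease inhibitors and acute-phase proteins. Cytokines of the IL-6 family act on these cells through receptors that share the gp130 subunit, and the kinases bound to it activate the transcription factor STAT3, which binds DNA at a palindromic site. Several of the 10 genes are also made outside astrocytes, Vim and Cd44 by vascular and immune cells and Lcn2 by neutrophils, endothelium and choroid plexus.

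The promoters of the genes were searched for the STAT site TTCNNNGAA and for the AP-1 site TGANTCA, each of which reads the same on both strands. RefSeq, on build GRCm38.p6, gave the 250 bases before the transcript start for 9 of the 10 genes. A STAT site was present in 1 of the 9, Steap4, against 7.02% of 32851 RefSeq promoters of the same length. The AP-1 site was present in none of the 9, against 6.749% of promoters. Both counts include the windows of Vim and Osmr, which lie with all 250 bases in annotated exons of those genes, and that of Lcn2, which does so with 197. A match is a description of letters, and the lack of a match says only that these letters are not in the window. These windows are shown 5′ to 3′ on the strand of the gene, because Serpina3n passed the test in both comparisons with AAV-GFP, Gfap is the defining astrocyte filament, and Steap4 holds the STAT site. They are Serpina3n at chr12:104406458-104406707 on the plus strand, Gfap at chr11:102897201-102897450 on the minus strand, and Steap4 at chr5:7960222-7960471 on the plus strand. Capitals mark the match TTCCCGGAA, which begins 116 bases before the Steap4 start, and the last 15 bases of the Steap4 window lie in an annotated exon of that gene.
Serpina3n: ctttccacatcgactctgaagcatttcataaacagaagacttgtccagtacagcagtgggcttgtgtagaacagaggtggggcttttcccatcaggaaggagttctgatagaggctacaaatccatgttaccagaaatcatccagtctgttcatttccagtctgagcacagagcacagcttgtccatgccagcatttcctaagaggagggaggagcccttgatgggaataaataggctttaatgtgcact
Gfap: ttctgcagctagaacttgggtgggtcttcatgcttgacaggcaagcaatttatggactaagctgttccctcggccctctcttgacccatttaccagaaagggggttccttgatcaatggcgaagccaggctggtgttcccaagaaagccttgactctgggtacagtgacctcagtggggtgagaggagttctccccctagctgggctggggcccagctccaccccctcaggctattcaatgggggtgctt
Steap4: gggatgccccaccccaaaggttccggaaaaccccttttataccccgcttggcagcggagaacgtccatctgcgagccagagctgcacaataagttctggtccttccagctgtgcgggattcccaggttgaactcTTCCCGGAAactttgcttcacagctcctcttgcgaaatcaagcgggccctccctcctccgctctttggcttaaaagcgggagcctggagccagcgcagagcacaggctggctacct

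The libraries held 47182529 to 64728587 reads assigned to genes, and the 3 groups covered much the same range of depth. Values below are normalised reads, that is, reads after division by a size factor for each library. Fold changes are differences of log2(normalised reads + 1), which understates changes of low genes. They were tested with limma across the 19443 genes that reached 10 in at least 6 libraries, with Benjamini-Hochberg adjustment over all of those genes and a threshold of 0.05. All 10 reactive astrocyte genes were among the genes tested. Sirt3, the gene carried by the virus, had lowest and highest values of 1733 and 1920 (intact), 1684 and 1936 (AAV-GFP), and 1801 and 2041 (AAV-SIRT3). The groups overlapped, and the Sirt3 difference of AAV-SIRT3 from AAV-GFP was 0.13 (SE 0.0422, adjusted p = 0.183), so these reads do not set the AAV-SIRT3 libraries apart by their label. Whether reads from the viral transcript were counted under mouse Sirt3 is not given in the sources used here. The defining astrocyte markers were present in every group, with Aldh1l1 between 3219 and 4033 and Slc1a3 between 19420 and 28675 over the 18 libraries. Th, tyrosine hydroxylase of dopaminergic neurons, lay between 4623 and 6637 in the intact libraries, 3673 and 5429 in the AAV-GFP libraries, and 5448 and 5938 in the AAV-SIRT3 libraries.

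Levels of the 10 genes spanned a wide range in the intact tissue. Per kilobase of annotated exon, Gfap was the highest, with a mean of 4192 normalised reads per kb, followed by Serpina3n with 817 and Vim with 423. A2m had 167, S1pr3 86.8, Cd44 70.1, Timp1 37.4 and Osmr 17.7 normalised reads per kb. Steap4, with 6.57, and Lcn2, with 4.17, were the lowest. In AAV-GFP the mean level of Lcn2 was 148 normalised reads per kb, between S1pr3 with 89.9 and A2m with 237, though the SD of Lcn2 exceeded its mean. Timp1 and S1pr3 also changed places in AAV-GFP, with 91.8 and 89.9 normalised reads per kb, and these neighbours did not differ beyond their spread. Spread between intact mice was small for most of the genes, with a coefficient of variation between 9.66% for Vim and 27.7% for Timp1, but it was 52.1% for Steap4 and 83.7% for Lcn2.

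**Figure D1:**
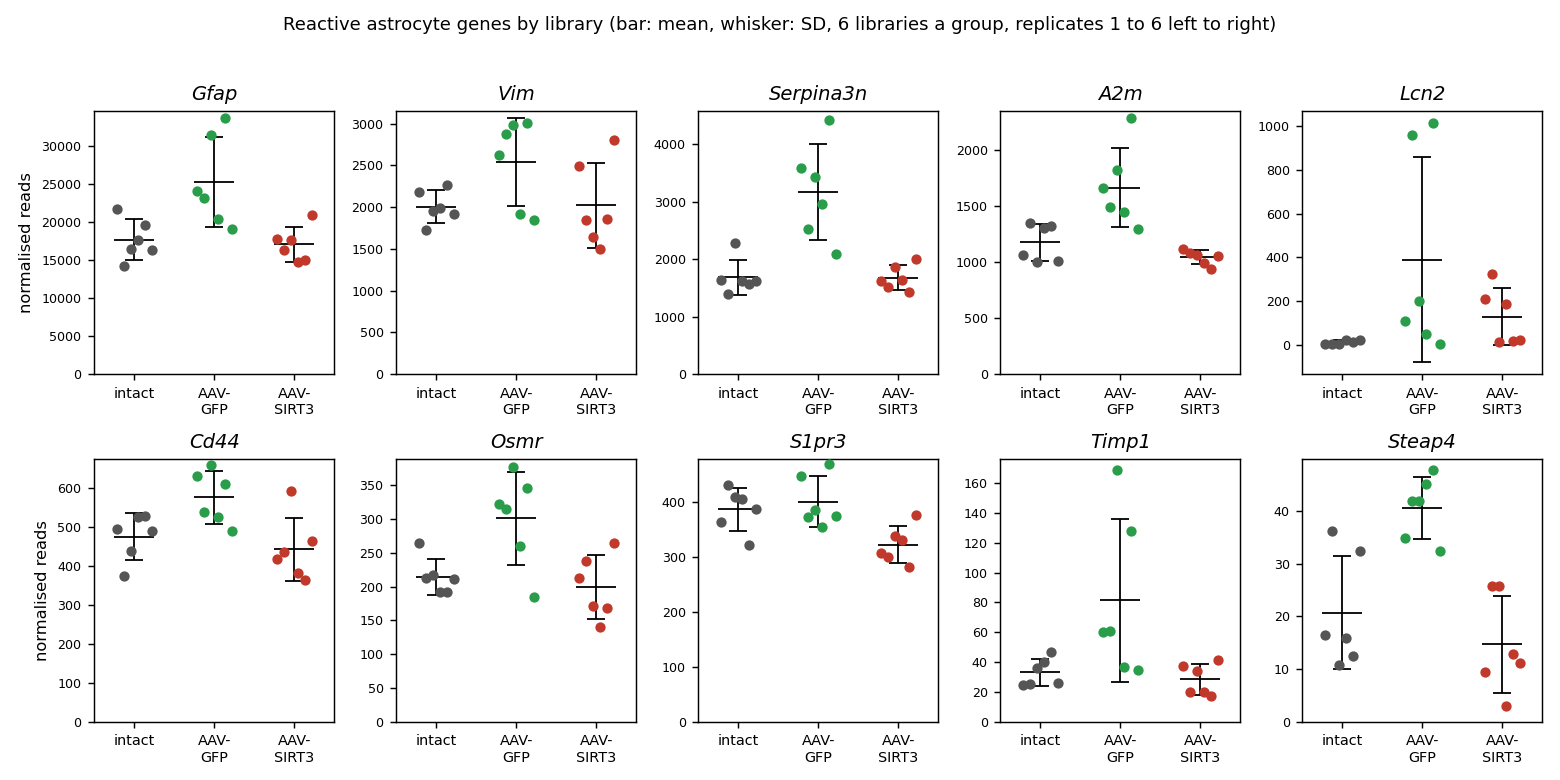
Normalised reads of the 10 genes (vertical axes, each gene on its own linear scale) in the 6 intact, 6 AAV-GFP and 6 AAV-SIRT3 libraries; points are libraries, replicates 1 to 6 from left to right, bars are means and whiskers SD (a whisker below 0 shows only a spread larger than the mean). All 6 AAV-SIRT3 libraries lie below all 6 AAV-GFP libraries for Serpina3n, A2m and Steap4, and Lcn2 runs from 4.91 to 1016 within AAV-GFP.

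In AAV-GFP against intact, 3 of the 10 genes passed the test and all 3 were higher with the virus: Serpina3n, A2m and Gfap. Across all genes tested in this comparison, 1.84% passed, 0.823% higher and 1.02% lower. The median fold change of the 10 genes was 0.50 on the log2 scale, against 0.0007 for all 19443 genes, and all 10 had a positive difference, where 50.21% of all genes did. In AAV-SIRT3 against AAV-GFP, 2 of the 10 passed and both were lower with SIRT3, Serpina3n and A2m, against 0.113% of all genes passing, 0.036% higher and 0.0771% lower. There the median of the 10 genes was −0.62, against −0.0041 for all genes, and all 10 differences were negative, where 48.56% of all genes had a positive one. AAV-SIRT3 against intact had 2 of the 10 past the threshold, Lcn2 higher and S1pr3 lower, a share near the 21.7% of all genes that passed, 11.3% higher and 10.3% lower. The median of the 10 genes was −0.12 in this comparison. On the recovered read counts, edgeR called 4, 2 and 2 of the 10 in the 3 comparisons, against 1.86%, 0.123% and 21% of all genes, and DESeq2 called 6, 8 and 2, against 5.15%, 1.56% and 23.8%. In AAV-GFP against intact both count tests called Serpina3n, A2m, Gfap and Lcn2, and DESeq2 also called Osmr and Timp1. In AAV-SIRT3 against AAV-GFP edgeR called Serpina3n and A2m, and DESeq2 called all but Vim and Lcn2. Each group of libraries enters 2 of the 3 comparisons, so the values of a gene in them are not independent of each other. In whole tissue, fewer cells of a type and less RNA per cell cannot be told apart.

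**Figure D2:**
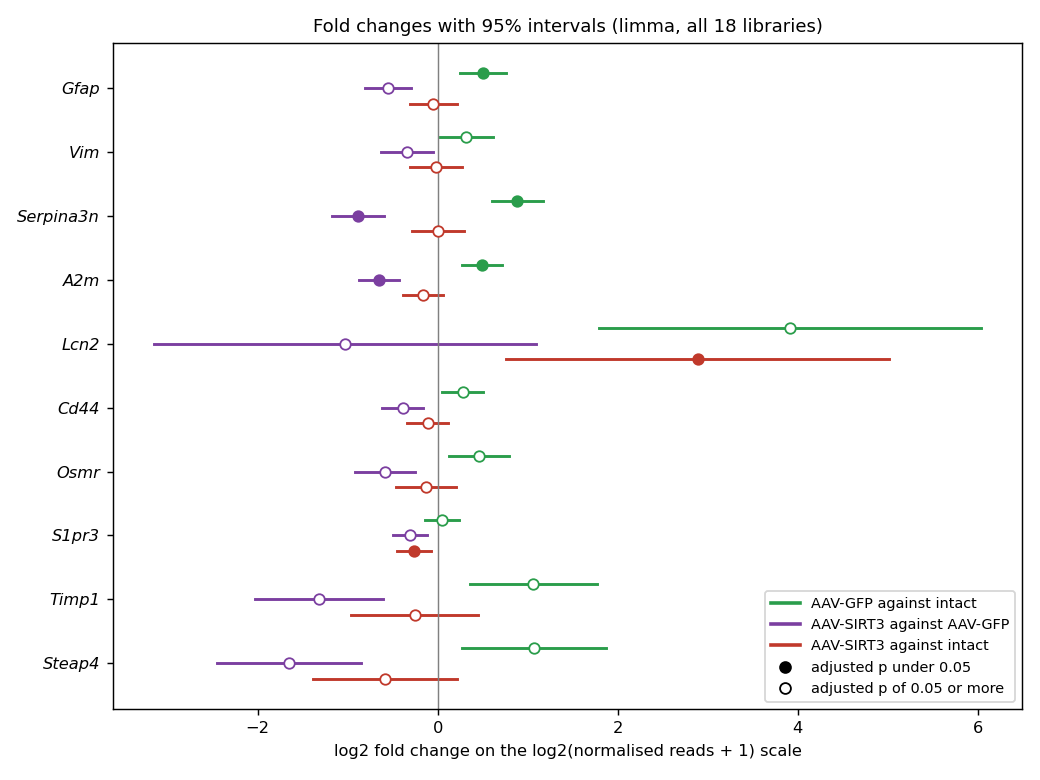
Log2 fold change of each gene (horizontal axis) with its 95% confidence interval from limma over all 18 libraries, for AAV-GFP against intact (green), AAV-SIRT3 against AAV-GFP (purple) and AAV-SIRT3 against intact (red); filled points have an adjusted p under 0.05. Serpina3n stands at 0.89, −0.88 and 0.001 in the 3 comparisons, and the intervals of Lcn2 are the widest.

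Gfap encodes the main intermediate filament of astrocytes and is carried on chromosome 11, from 102887336 to 102900912 on build GRCm38. It had a lowest, median and highest value of 14204, 17053 and 21766 normalised reads in intact, 19102, 23668 and 33696 in AAV-GFP, and 14750, 16988 and 20954 in AAV-SIRT3. Gfap rose by 0.50 in AAV-GFP against intact (SE 0.123, adjusted p = 0.0388), with the AAV-GFP library higher in 33 of 36 pairs of libraries and the groups overlapping. The difference of AAV-SIRT3 from AAV-GFP was −0.55 (SE 0.123, adjusted p = 0.0758), with the SIRT3 library higher in 2 of 36 pairs. From intact, AAV-SIRT3 differed by −0.05 (95% interval −0.30 to 0.21). The Gfap call in AAV-GFP was lost in 8 of 18 fits that left out 1 library: intact 2, 3, 4, 5 or 6, or AAV-GFP 2, 3 or 5, with adjusted p up to 0.0944. It was also lost when only the 2 groups compared were fitted (adjusted p = 0.0682), with robust moderation (0.0805) and with all genes above 0 tested (0.0746). In AAV-SIRT3 against AAV-GFP, Gfap passed without AAV-GFP replicate 2 (adjusted p = 0.0234) and without AAV-GFP replicate 6 (0.0315).

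Vim encodes vimentin, the partner filament, and lies on chromosome 2. Its lowest, median and highest values were 1727, 1971 and 2268 in intact, 1850, 2755 and 3010 in AAV-GFP, and 1498, 1847 and 2801 in AAV-SIRT3. The groups overlapped throughout: 4 AAV-GFP libraries stood above every intact library and the other two within the intact range. Vim differed by 0.32 (adjusted p = 0.217) in AAV-GFP against intact and by −0.34 (adjusted p = 0.264) in AAV-SIRT3 against AAV-GFP, neither past the threshold. The within-library difference of Gfap minus Vim was 3.13 ± 0.0988 in intact and 3.31 ± 0.177 in AAV-GFP on the log2 scale (SD, n = 6; exact two-sided permutation test, p = 0.0541, adjusted p = 0.175 over 9 such comparisons), so a larger rise of Gfap than of Vim was not shown.

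Serpina3n, a secreted inhibitor of serine proteases of the antichymotrypsin family, gave the firmest difference of the 10 genes. It lies on chromosome 12, from 104406729 to 104414329. Its lowest, median and highest values were 1392, 1621 and 2278 normalised reads in intact, 2092, 3203 and 4431 in AAV-GFP, and 1431, 1630 and 2012 in AAV-SIRT3. Every AAV-SIRT3 library was below every AAV-GFP library, while intact and AAV-GFP overlapped through a single high intact library, replicate 3. Serpina3n rose by 0.89 in AAV-GFP against intact (SE 0.139, adjusted p = 0.00297), and it fell by 0.88 in AAV-SIRT3 against AAV-GFP (SE 0.139, adjusted p = 0.00990). Both calls held whichever of the 18 libraries was left out, with adjusted p up to 0.0128 and 0.0435. From intact, AAV-SIRT3 differed by 0.001, with a 95% interval of −0.29 to 0.29. Its relatives of the Serpina3 cluster were far lower, the highest being Serpina3g with a mean of 37.2 over all libraries, but reads that fit several of these copies remain a source of uncertainty.

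A2m encodes alpha-2-macroglobulin, a broad inhibitor that traps proteases, and lies on chromosome 6, from 121635376 to 121679227. In intact its lowest, median and highest values were 1003, 1181 and 1346, in AAV-GFP 1293, 1576 and 2282, and in AAV-SIRT3 942, 1058 and 1112. The AAV-SIRT3 libraries were all below the AAV-GFP libraries and varied little among themselves, with a coefficient of variation of 5.95% against 21.2% in AAV-GFP. A2m rose by 0.49 in AAV-GFP against intact (SE 0.106, adjusted p = 0.0214) and fell by 0.65 in AAV-SIRT3 against AAV-GFP (SE 0.106, adjusted p = 0.0116). Its difference in AAV-SIRT3 against intact was −0.16 (adjusted p = 0.285). The first call was lost without intact replicate 3 (adjusted p = 0.0660) or AAV-GFP replicate 3 (0.0565), and the second without AAV-SIRT3 replicate 5 (0.0508). The first was also lost when only AAV-GFP and intact were fitted (adjusted p = 0.0585). Serpina3n minus A2m, taken within each library, was lower in AAV-SIRT3 than in AAV-GFP by 0.23 (exact two-sided permutation test, p = 0.0455), which did not pass after adjustment over the 9 comparisons of such pairs (adjusted p = 0.175).

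Timp1, an inhibitor of matrix metalloproteinases on the X chromosome, was a low transcript with lowest, median and highest values of 24.7, 31.1 and 46.8 in intact, 34.4, 60.7 and 169 in AAV-GFP, and 17.2, 27.3 and 41.6 in AAV-SIRT3. AAV-GFP replicates 3 and 5 were the high ones, with 169 and 128, and the remaining 4 AAV-GFP libraries lay between 34.4 and 61.1. Timp1 differed by 1.06 (SE 0.341, adjusted p = 0.0943) in AAV-GFP against intact and by −1.32 (adjusted p = 0.108) in AAV-SIRT3 against AAV-GFP, neither past the threshold in limma. It passed in the latter without AAV-GFP replicate 2 (adjusted p = 0.0408). The gene lies within Syn1 on the opposite strand, a neuronal gene with a mean of 23212 to 25416 normalised reads in the 3 groups. Whether the counting used strand is not given in the sources used here. Without it, only reads at bases annotated to both genes could not be told apart. The overlap was taken over whole gene spans, and whether exons of both genes share bases was not examined.

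Lcn2 encodes lipocalin 2, a secreted protein that binds bacterial iron carriers, and was the most variable of the 10 genes. It lies on chromosome 2, from 32384633 to 32388252. In intact its lowest, median and highest values were 2.74, 7.97 and 22.96 normalised reads, in AAV-GFP 4.91, 153 and 1016, and in AAV-SIRT3 14.3, 105 and 322. Within AAV-GFP, replicates 2 and 5 had 960 and 1016, replicates 1, 3 and 4 had 107, 198 and 49.4, and replicate 6, with 4.91, lay inside the intact range. Within AAV-SIRT3, 3 libraries had 186 to 322 and the other 3 had 14.3 to 23.6. The limma difference in AAV-GFP against intact was 3.91 (SE 1.02, adjusted p = 0.0502), just short of the threshold, with AAV-GFP higher in 33 of 36 pairs. Both edgeR and DESeq2 called Lcn2 in that comparison. Lcn2 rose by 2.89 in AAV-SIRT3 against intact (SE 1.02, adjusted p = 0.0474), and this call was lost in 11 of 18 fits that left out 1 library (intact 1, 2, 3, 4 or 5, AAV-GFP 1, 3 or 4, or AAV-SIRT3 1, 2 or 4), with adjusted p up to 0.111. AAV-SIRT3 differed from AAV-GFP by −1.03 with a 95% interval of −3.15 to 1.09. In AAV-GFP against intact it passed without AAV-GFP replicate 6 (adjusted p = 0.00800), and also without intact replicate 6, AAV-GFP replicate 1 or AAV-SIRT3 replicate 6 (0.0415, 0.0487 and 0.0471).

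Cd44, the receptor for hyaluronan, had lowest, median and highest values of 373, 492 and 528 in intact, 489, 574 and 660 in AAV-GFP, and 364, 426 and 592 in AAV-SIRT3. All 3 groups overlapped. The Cd44 difference was 0.28 (adjusted p = 0.168) in AAV-GFP against intact and −0.39 (adjusted p = 0.122) in AAV-SIRT3 against AAV-GFP. Osmr, the subunit that joins gp130 to form the oncostatin M receptor, had 192, 212 and 264 in intact, 185, 319 and 377 in AAV-GFP, and 141, 192 and 264 in AAV-SIRT3. For Osmr, AAV-GFP replicate 6 was below every intact library, and the 5 others lay between 259.6 and 377. Osmr differed by 0.46 (adjusted p = 0.124) and −0.59 (adjusted p = 0.121) in the same comparisons. Osmr passed in both without AAV-GFP replicate 6, with adjusted p = 0.0403 and 0.0368, and Cd44 passed in the second without AAV-GFP replicate 2 (0.0484). No difference between groups in Osmr minus Cd44, taken within each library, passed the test (lowest exact permutation p = 0.262, adjusted p = 0.419 over the 9 comparisons).

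S1pr3, a receptor for sphingosine 1-phosphate on chromosome 13, had the smallest difference of the 10 genes in AAV-GFP against intact, 0.05 with a 95% interval of −0.14 to 0.24. Its lowest, median and highest values were 323, 397 and 432 in intact, 354, 380 and 470 in AAV-GFP, and 283, 319 and 377 in AAV-SIRT3. The groups overlapped. S1pr3 fell by 0.26 in AAV-SIRT3 against intact (SE 0.0903, adjusted p = 0.0418), a call lost in 7 of 18 fits that left out 1 library (intact 2, 3, 4 or 6, or AAV-SIRT3 1, 2 or 5), with adjusted p up to 0.10. The difference of AAV-SIRT3 from AAV-GFP was −0.31 (adjusted p = 0.134).

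Steap4, a metalloreductase of the cell membrane and endosome, was low, with 10.7, 16.2 and 36.3 normalised reads as lowest, median and highest value in intact, 32.4, 41.9 and 47.7 in AAV-GFP, and 2.98, 12.1 and 25.7 in AAV-SIRT3. All AAV-SIRT3 libraries were below all AAV-GFP libraries, and 1 intact library, replicate 2, reached the AAV-GFP range. The Steap4 difference was 1.07 (SE 0.386, adjusted p = 0.133) in AAV-GFP against intact and −1.66 (SE 0.386, adjusted p = 0.0969) in AAV-SIRT3 against AAV-GFP. It passed in the latter without AAV-GFP replicate 2 (adjusted p = 0.0321). Serpina3n, A2m and Steap4 were thus the 3 of the 10 genes with no overlap between AAV-GFP and AAV-SIRT3, all lower in AAV-SIRT3, where 0.381% of all genes tested separated in that direction and 0.37% in the other. None of the 10 separated AAV-GFP from intact, where 0.874% of genes were higher and 0.988% lower without overlap, and none separated AAV-SIRT3 from intact, where 5.01% were higher and 4.32% lower.

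**Figure D3:**
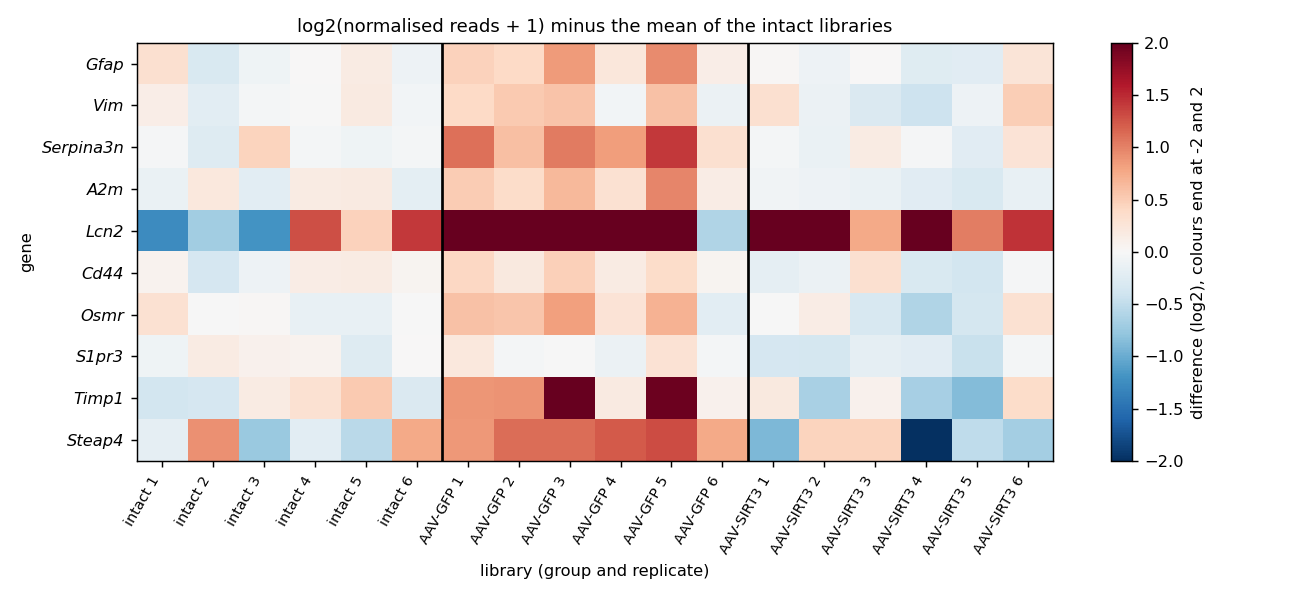
Log2(normalised reads + 1) of each gene (rows) in each of the 18 libraries (columns, by group and replicate) minus the mean of the 6 intact libraries; colours end at −2 and 2, so Lcn2 saturates. AAV-GFP replicate 5 is the highest library of its group for 7 of the 10 genes and replicate 6 the lowest for 9.

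Within the AAV-GFP group the same libraries ranked high or low for most of the genes. Of the 10 genes, 7 were highest in AAV-GFP replicate 5 and 9 had it among the top 2, replicate 3 was the highest for the other three, and replicate 6 was the lowest for 9. In AAV-SIRT3, replicate 6 was the highest for 6 genes, while replicates 4 and 5 were the lowest for 4 and 5. The same libraries differed in markers of other cells: AAV-GFP replicate 6 had the lowest mean log2 level of its group over 15 microglia genes, 10.3 against 10.4 to 10.6. Over 10 fibroblast genes it had 9.07 against 9.09 to 9.98, hardly below replicate 4 with 9.09. Over the tested ependymal genes it was instead the highest of its group, with 8.18. Choroid plexus genes summed to 45040 normalised reads in AAV-GFP replicate 5 and 50918 in intact replicate 2, where the lowest libraries of these groups had 1375 and 1737. The part of these cells in the members' values was not tested. Without those 2 libraries, Serpina3n and A2m still passed in AAV-GFP against intact (0.73, adjusted p = 0.0176, and 0.44, adjusted p = 0.0253) and in AAV-SIRT3 against AAV-GFP (−0.78, adjusted p = 0.0214, and −0.56, adjusted p = 0.0198), while Gfap did not pass in the former (0.35, adjusted p = 0.121). Without AAV-GFP replicates 3 and 5, a pair picked because they were highest, Serpina3n was the only one of the 10 genes to pass in AAV-GFP against intact (0.71, adjusted p = 0.0440) and none passed in AAV-SIRT3 against AAV-GFP, where Serpina3n differed by −0.71 and A2m by −0.50 (adjusted p = 0.108 for both).

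Resting astrocyte function was followed through 15 homeostatic genes, which serve glutamate uptake, water transport and coupling. None of the 15 passed in limma in AAV-GFP against intact, where the median was 0.08 and 1.84% of all genes passed, or in AAV-SIRT3 against AAV-GFP, where it was 0.01 and 0.113% passed. At an unadjusted p under 0.05, 2 of them did in each comparison. Of the count tests, edgeR called 0 in both, and DESeq2 0 and 1. Still, 14 of the 15 had a positive limma difference in the former, where 50.21% of all genes did, and 9 in the latter, where 48.56% did. Their mean log2 level was the highest of the 18 libraries in AAV-GFP replicates 5 and 3 (14.33 and 14.30). Aqp4, the astrocyte water channel, differed by 0.22 (adjusted p = 0.166) and −0.33 (adjusted p = 0.108). In AAV-SIRT3 against intact, 3 of the 15 rose: Glul, glutamine synthetase, by 0.18, Aldoc, an aldolase, by 0.15 and Ndrg2 by 0.14. This share is near that of all genes, of which 21.7% passed there and 11.3% were higher. When the mean log2 level of these 15 genes was subtracted from every gene in each library and the fit repeated, Serpina3n (0.82, adjusted p = 0.00230), A2m (0.42, adjusted p = 0.0169), Gfap (0.43, adjusted p = 0.0230) and Lcn2 (3.85, adjusted p = 0.0215) passed in AAV-GFP against intact. Serpina3n (−0.86, adjusted p = 0.00614) and A2m (−0.63, adjusted p = 0.00709) passed in AAV-SIRT3 against AAV-GFP. With the mean of the 15 genes as a covariate instead, Serpina3n still passed in AAV-GFP against intact, at 0.77 (adjusted p = 0.0312), whereas A2m stood at 0.40 (adjusted p = 0.0802) and Gfap at 0.34 (adjusted p = 0.156). The subtraction called 1306 genes in AAV-GFP against intact, 118 higher and 1188 lower, where the unscaled fit called 160 higher and 198 lower, and it moved the median of all genes by less than 0.1.

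Among 14 other genes reported as raised in reactive astrocytes of several kinds, 2 rose in AAV-GFP against intact, where 1.84% of all genes passed, 0.823% higher. Tgm1, a transglutaminase, rose by 2.08 (SE 0.485, adjusted p = 0.0331) from a mean of 8.08 normalised reads to 42.3, and Cd109, a protein related to A2m, rose by 0.78 (SE 0.155, adjusted p = 0.0162). The median of the 14 was 0.16. In AAV-SIRT3 against AAV-GFP, where limma called 0.113% of all genes, none of the 14 passed in limma or edgeR. There 7 had an unadjusted p under 0.05 and DESeq2 called 4, with a median of −0.26. There Tgm1 differed by −1.79 (adjusted p = 0.120) and Cd109 by −0.71 (adjusted p = 0.0708). In AAV-SIRT3 against intact 2 of the 14 passed, where 21.7% of all genes did. Cxcl10, a chemokine induced by interferon, rose by 1.75 (adjusted p = 0.0184), and Nes, the filament nestin, fell by 0.31 (adjusted p = 0.0398). Cxcl10 was low and scattered, with a mean of 16.5 normalised reads in intact and a range of 15.1 to 156 in AAV-SIRT3.

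Of 12 genes reported for the astrocyte state induced by microglial cytokines, often called A1, 11 were tested. C3, the central complement component, was the only one to pass in limma in AAV-GFP against intact, where it rose by 1.31 (SE 0.209, adjusted p = 0.00340), and in AAV-SIRT3 against AAV-GFP, where it fell by 1.32 (SE 0.209, adjusted p = 0.00990). Of all genes, 1.84% passed in the former and 0.113% in the latter. Mean C3 was 228 ± 35.7 (intact), 599 ± 228 (AAV-GFP) and 229 ± 53.9 (AAV-SIRT3) normalised reads (SD, n = 6). Microglia and other cells make C3 as well. In AAV-SIRT3 against intact 2 of the 11 passed, a share near the 21.7% of all genes that passed there, 11.3% higher. They were H2-D1, an MHC class I chain, with a rise of 0.63, and Psmb8, an immunoproteasome subunit, with a rise of 0.65. H2-D1 ran from 3032 to 7415 normalised reads in AAV-SIRT3, with a median of 3502.

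The gp130 and STAT3 pathway was followed through 22 ligands, receptors, kinases and feedback inhibitors, of which 19 were tested. None of the 19 passed in AAV-GFP against intact in limma, edgeR or DESeq2, where limma called 1.84% of all genes, with 2 at an unadjusted p under 0.05 and a median of 0.04. None passed in AAV-SIRT3 against AAV-GFP in limma or edgeR either, where limma called 0.113% of all genes, with 3 at an unadjusted p under 0.05, 1 called by DESeq2 and a median of −0.05. The ligand genes Il6, Osm and Cntf were under the filter, with group means of 2.69 to 4.33, 1.76 to 4.01 and 6.10 to 6.99 normalised reads. Stat3 itself had means of 3537 ± 98.1, 3622 ± 244 and 3406 ± 149 (SD, n = 6). Socs3, a feedback inhibitor that STAT3 induces, had 85.7 ± 11.7, 120 ± 24.6 and 94.6 ± 23.7, with a difference of 0.47 in AAV-GFP against intact that did not pass. Against intact, 3 of the 19 passed in AAV-SIRT3, 2 higher and 1 lower, a share near the 21.7% of all genes. Cntfr, the receptor for ciliary neurotrophic factor, rose by 0.14 in AAV-SIRT3 against intact, while Il6st, which encodes gp130, fell by 0.23 (adjusted p = 0.00367).

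**Figure D4:**
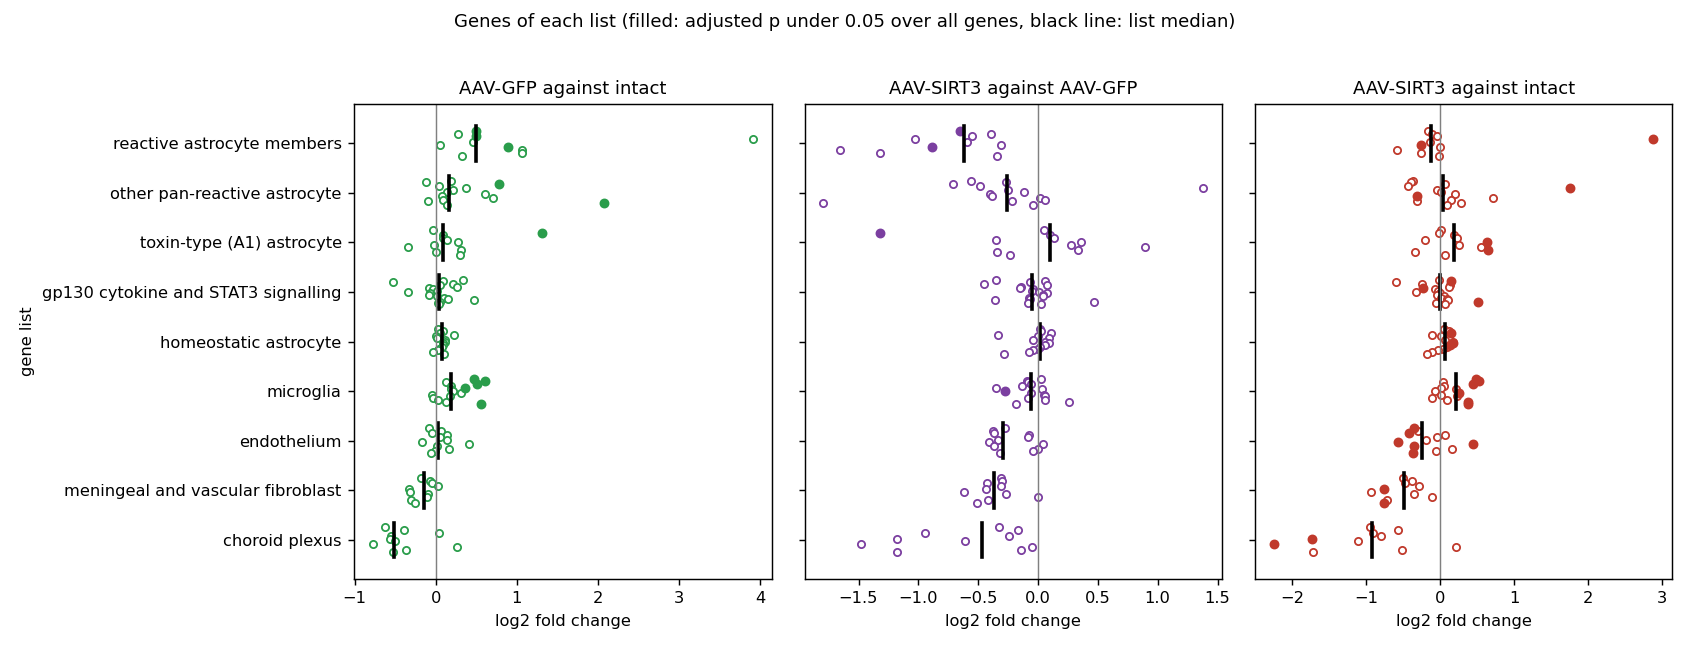
Log2 fold changes (horizontal axes) of the tested genes of 9 lists (vertical axis) in the 3 comparisons; each point is a gene, filled where the adjusted p over all genes is under 0.05, and the black line is the list median. The medians of the 10 reactive astrocyte genes are 0.50, −0.62 and −0.12, and those of the homeostatic astrocyte genes 0.08, 0.01 and 0.06.

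Microglia genes rose in the same comparison as Serpina3n, A2m and Gfap. Of 15 tested, 5 rose in AAV-GFP against intact, where 1.84% of all genes passed, 0.823% higher. They were C1qa by 0.61, Trem2 by 0.56, Ctss by 0.51, Aif1 by 0.47 and Fcrls by 0.36. The 15 genes summed to 25471 to 28949 normalised reads in intact, 27817 to 35776 in AAV-GFP and 28389 to 33086 in AAV-SIRT3. Against intact, 6 of the 15 rose in AAV-SIRT3, where 21.7% of all genes passed, 11.3% higher. With the mean log2 level of the microglia genes as a covariate, no gene at all passed in AAV-GFP against intact, with 2196 at an unadjusted p under 0.05. Serpina3n, A2m and Gfap then differed by 0.24, 0.31 and 0.11 (adjusted p = 0.624, 0.540 and 0.875). That mean was 10.12 to 10.30 in intact and 10.26 to 10.58 in AAV-GFP. The covariate thus nearly follows the group, and this fit cannot separate the 2. The part of microglia in the members' values was not tested. In AAV-SIRT3 against AAV-GFP that covariate left Serpina3n at −0.74 (adjusted p = 0.00453) and A2m at −0.61 (adjusted p = 0.0260), both past the threshold. Genes of neutrophils, a known source of Lcn2, were low: 3 of 8 were tested, and none passed in any comparison in limma, edgeR or DESeq2 or had an unadjusted p under 0.05. The 8 summed to at most 169 normalised reads in a library, with Ly6g at 0 in all intact and AAV-GFP libraries. All 3 tested genes had a positive difference in AAV-GFP against intact, with a limma median of 0.68. Within AAV-GFP their mean log2 level was highest in replicates 3 and 5 (5.47 and 4.72) and lowest in replicates 4 and 6 (1.94 and 1.90). The part of neutrophils in the members' values was not tested.

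Markers of the vessel wall and of neighbouring tissue were lower or higher with the groups as well. None of 12 endothelial, 10 fibroblast and 10 choroid plexus genes passed in limma in AAV-GFP against intact, with 2, 1 and 0 at an unadjusted p under 0.05; edgeR and DESeq2 each called 1 endothelial gene and none of the others. In AAV-SIRT3 against intact, 5 endothelial genes fell and 1 rose, and 2 fibroblast and 2 choroid plexus genes fell, where 21.7% of all genes passed. Limma and edgeR called none of these genes in AAV-SIRT3 against AAV-GFP, and DESeq2 called 1, an endothelial gene. The limma differences there were negative for 11 of the 12 endothelial genes, with a median of −0.30 and 7 at an unadjusted p under 0.05. They were negative for 9 of the 10 fibroblast genes (median −0.37, 1 at an unadjusted p under 0.05) and for all 10 choroid plexus genes (median −0.47, 0 at an unadjusted p under 0.05; in edgeR −1.24 and 5). Of 10 pericyte and smooth muscle genes, 9 were negative there in limma (median −0.08, 1 at an unadjusted p under 0.05). Limma called 0 of these 10 in either comparison with AAV-GFP and 2, both lower, in AAV-SIRT3 against intact, where 21.7% of all genes passed. Of 10 genes of the neighbouring thalamus, 2 rose in AAV-GFP against intact in limma, where 1.84% of all genes passed. There edgeR called 0 of them and DESeq2 2. All 10 had a positive limma difference in that comparison, with a median of 0.72 and 9 at an unadjusted p under 0.05. In AAV-SIRT3 against intact 9 rose, where 21.7% of all genes passed. The 10 thalamus genes summed to 43863 to 92958 normalised reads in intact, 78888 to 88322 in AAV-GFP and 72818 to 99729 in AAV-SIRT3. With the mean of the thalamus genes as a covariate, Serpina3n still passed in AAV-GFP against intact and A2m did not (0.44, adjusted p = 0.277). In AAV-SIRT3 against AAV-GFP, Serpina3n and A2m still passed, and so did Gfap (−0.54, adjusted p = 0.0460) and Steap4 (−1.69, adjusted p = 0.0338). Because the thalamus genes were themselves higher in AAV-GFP than in intact, this covariate takes up part of that group difference. The part of these cells in the members' values was not tested.

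Dopaminergic neurons were followed through 8 marker genes. The limma differences of AAV-GFP from intact were negative for 7 of the 8, with a median of −0.30 and 6 at an unadjusted p under 0.05; limma and edgeR called 1 of them and DESeq2 2. The gene limma called was Slc6a3, the dopamine transporter, which fell by 0.44 (SE 0.0987, adjusted p = 0.0263) and whose highest AAV-GFP value, 9172, was below its lowest intact value, 9283. Th differed by −0.28 (adjusted p = 0.0755) in that comparison. The differences of AAV-SIRT3 from AAV-GFP were positive for 7 of the 8, with a median of 0.25 and 4 at an unadjusted p under 0.05, but limma and edgeR called none and DESeq2 2. Th was higher in all AAV-SIRT3 libraries than in all AAV-GFP libraries, by 0.30 (SE 0.0842, adjusted p = 0.122), and Slc6a3 differed by 0.33 (adjusted p = 0.143). No tool called any of the 8 in AAV-SIRT3 against intact, where limma and the count tests gave 0, 1 and 1 at an unadjusted p under 0.05. The 8 genes summed to 40223 to 55032 normalised reads in the intact libraries, 35496 to 46177 in the AAV-GFP libraries and 41156 to 48661 in the AAV-SIRT3 libraries. Their part in the reactive astrocyte genes' values was not tested.

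Over the 18 libraries, the genes outside the list whose log2 levels followed Gfap most closely were Msn (Pearson r = 0.92), Lyz2 (0.92), Gpnmb (0.89), Tgfbr2 (0.88) and Cd68 (0.87). For Serpina3n they were C3 (0.97), Gpnmb (0.94), Slc14a1 (0.88), Cd68 (0.88) and Mpeg1 (0.87). Among the other members tested for likeness, Gfap correlated with Serpina3n at 0.85, Osmr at 0.85, Vim at 0.84 and Lcn2 at 0.48. After subtraction of the group means, which leaves the differences between mice of a group, Gfap was closest to Msn (0.89) and Ddr2 (0.88), and Serpina3n to C3 (0.88) and Ptprc (0.83), the leukocyte common antigen. Gfap and Serpina3n correlated at 0.65 after that step. These correlations are descriptions over 18 libraries that share groups, size factors and mice, and they were picked as the highest of all genes with a mean of at least 50.

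**Figure D5:**
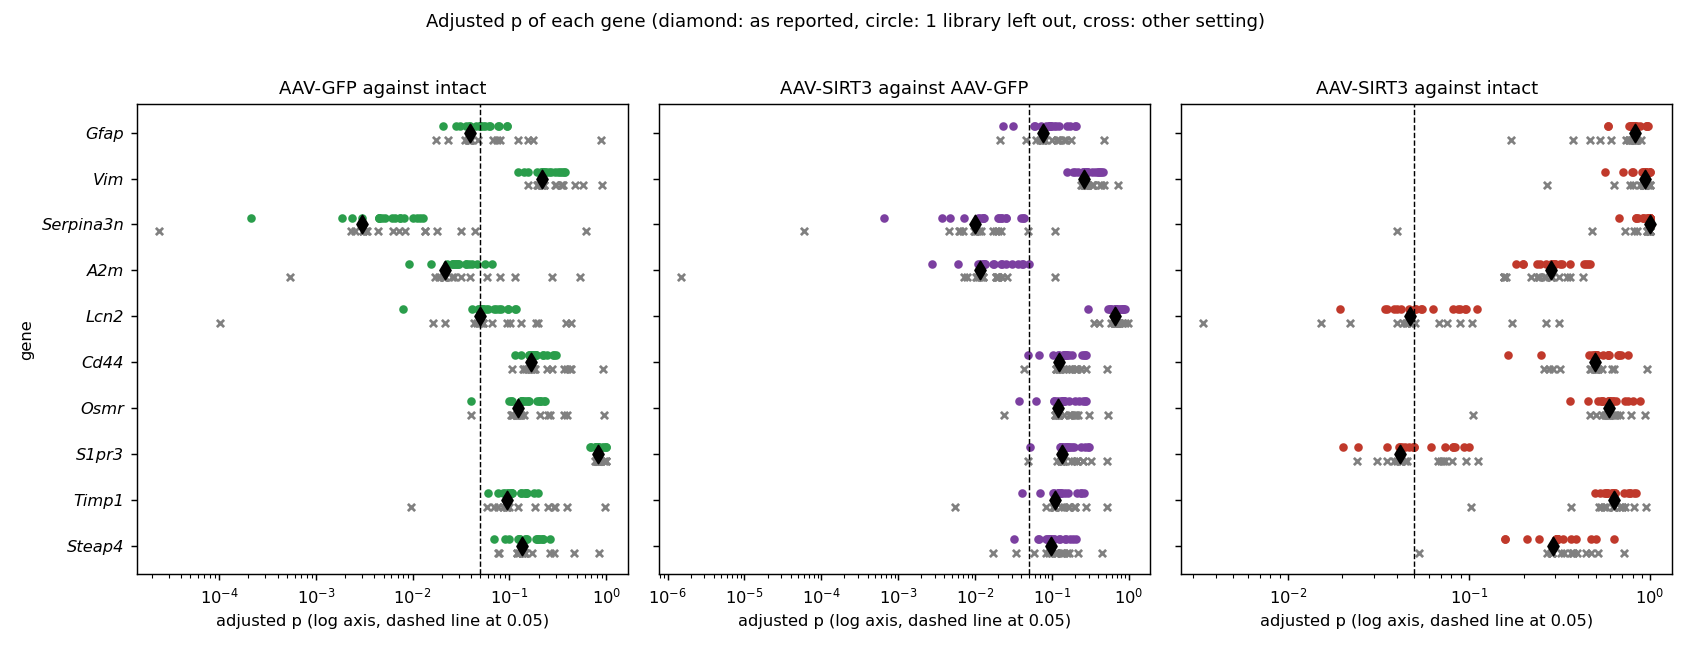
Adjusted p (horizontal log axis) of each gene (rows) in the 3 comparisons; the diamond is the value reported, circles are the 18 fits that leave out 1 library, crosses are other settings, and the dashed line marks 0.05. All circles of Serpina3n lie left of the line in both comparisons with AAV-GFP, while those of Gfap lie on both sides in AAV-GFP against intact.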

How the data were processed

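The values are normalised read counts for 18 RNA-seq libraries of poly-A RNA from substantia nigra, made with a stranded kit and read as pairs of 100 bases, from RNA with an integrity number above 7.0, per the labels' protocols. The deposited signal is counts per gene divided by DESeq2 size factors, from the table's own name and steps. The submitters' processing notes name HISAT2 2.1.0, DESeq2 1.34.0 and mm10, and the annotation and the strand setting of the counting are not given in the sources used here. Whole reads were recovered from the steps of the values (100% whole within 1e-06 reads), although 2 libraries have a size factor so near 1 that their steps are no separate proof. No pair of replicates agreed within sampling noise.

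Genes with 10 or more in at least 6 libraries (19443) were tested with limma 3.58.1 (R 4.3.3) on log2(value + 1), with a trend and all 18 libraries in the fit, and Benjamini-Hochberg adjustment. edgeR 4.0.16 called 362, 24 and 4087 genes on the recovered reads in AAV-GFP against intact, AAV-SIRT3 against AAV-GFP and AAV-SIRT3 against intact, and DESeq2 1.42.0 was a further alternative. The limma p-values set each difference between groups against the spread between mice, estimated over the 3 groups together. The code was tested on simulated counts. Positions are from GENCODE M21 on GRCm38, and promoters from RefSeq.

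The members, gene lists and tests were chosen with earlier results of these data known. Genes outside the members are named when they passed the threshold in the comparison described (at most 6 a list by size), as a defining marker, or among the 5 most like Gfap or Serpina3n; Il6, Osm, Cntf, Stat3, Socs3 and Ly6g were named after their values were seen. A planned adjustment of the members' exact tests relative to astrocyte genes over those tests alone was dropped after its values were seen, and a fit over all genes took its place. Some results for single genes of these lists are not reported here.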

Additional observations from a re-analysis of the deposited data

Results flagged for a closer look

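Serpina3n in intact replicate 3, at 2278 normalised reads, lay far from the other intact libraries, the next of which had 1645. It is the intact library that overlaps the AAV-GFP range, and without it Serpina3n passed in both comparisons with AAV-GFP. Osmr in intact replicate 1, at 264 normalised reads, lay above the next intact library, which had 217. By Dixon's test at 95%, 2 of 30 groups of 6 values for the 10 genes held such a library, where chance gives about 1.5.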

How the results depend on the processing

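Each result was recomputed under other settings, without each of the 18 libraries, and under 4 settings chosen after seeing the data (the microglia covariate, the scaling to homeostatic astrocyte genes, and leaving out 2 pairs of libraries). Genes called in AAV-GFP against intact were 358, and became 164 with all genes above 0, 1000 with DESeq2, 199 with 2-group fits, 18 with the thalamus covariate, 0 with the microglia covariate (2196 at an unadjusted p under 0.05), 1306 relative to homeostatic astrocyte genes, 16 without both AAV-GFP libraries highest for the members, and 129 to 686 without 1 library. In AAV-SIRT3 against AAV-GFP, 22 became 304 with DESeq2, 8 with 2-group fits, 13 relative to homeostatic astrocyte genes (5 higher and 8 lower, against 7 and 15), 8 without both libraries with high choroid plexus genes, 2 without both AAV-GFP libraries highest for the members, and 5 to 861 without 1 library, the highest without AAV-GFP replicate 2. In AAV-SIRT3 against intact, 4214 became 1307 with the thalamus covariate, 1412 with the microglia covariate, 3407 relative to homeostatic astrocyte genes (785 higher and 2622 lower, against 2206 and 2008), and 3279 to 4633 without 1 library.

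Of the 10 genes, 3 passed in AAV-GFP against intact, and 6 did with DESeq2, 1 with 2-group fits, 1 with the homeostatic astrocyte covariate, 0 with the microglia covariate (1, Lcn2, at an unadjusted p under 0.05), 1 without both AAV-GFP libraries highest for the members, and 1 to 5 without 1 library. The 2 that passed in AAV-SIRT3 against AAV-GFP became 8 with DESeq2, 4 with the thalamus covariate, 0 without both AAV-GFP libraries highest for the members, and 1 to 6 without 1 library. The 2 in AAV-SIRT3 against intact became 1 with quantile normalisation, a pseudocount of 10, robust moderation or the microglia covariate, 0 with all genes above 0, the homeostatic astrocyte or thalamus covariate or both choroid plexus libraries left out, and 0 to 2 without 1 library. Under the microglia covariate Serpina3n in AAV-SIRT3 against intact stood at −0.50 (adjusted p = 0.0399), against 0.001 without it, the only reversed direction of a called value. The cause was not tested for any of these. The microglia and thalamus covariates were themselves higher on average in the virus groups than in intact. Libraries with the same replicate number did not deviate together (18 pairs, correlations −0.0953 to 0.175, 1 over 0.1); with the numbers as a block, 372, 13 and 3923 genes and 3, 2 and 0 of the 10 genes passed, and 1 of the 18 pairs was the closest match of its library. In exact tests relative to homeostatic astrocyte genes the block's smallest possible p is 0.03125.

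Depth limits the low genes: Steap4, Timp1 and, in intact, Lcn2 rest on few reads, down to 3 in a library.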
